A study of Rattus norvegicus with 12 samples.

Results

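The genes described here encode 7 proteins that make, cut or sense angiotensin peptides: the precursor angiotensinogen (Agt), the peptidases Ace, Enpep, Anpep and Mme, and the receptors Agtr1a and Agtr2. The probe sets taken were all those that the annotation of the Affymetrix RAE 230A rat array assigned to 1 of these genes alone, which gave 11 probe sets of the 15923 on the array, for 7 of the 10411 genes it names. Of the 7 genes, 4 (Enpep, Ace, Agtr1a and Agtr2) had 2 probe sets each and 3 (Anpep, Mme and Agt) had 1 each. RNA came from whole lung of 12 male Wistar rats, with 1 array for each animal. Streptozotocin, which kills the beta cells that make insulin, was given to the 7 diabetic animals at 8 weeks of age, and the 5 normal animals were given buffer alone by the intraperitoneal route. All animals of both groups were fasted and were 12 weeks old when lungs were taken, after 4 weeks of diabetes in the treated group. The comparison asked which lung transcripts differed with this insulin-deficient diabetes. In whole lung, fewer cells of a type and less RNA per cell cannot be told apart.

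In the renin-angiotensin system, renin cuts angiotensinogen to angiotensin I, and angiotensin-converting enzyme (Ace), which is abundant on the endothelium of lung capillaries, cuts that peptide to angiotensin II. Aminopeptidase A (Enpep) then removes the amino-terminal aspartate of angiotensin II to leave angiotensin III, and aminopeptidase N (Anpep, also known as CD13) shortens angiotensin III to angiotensin IV. Neprilysin (Mme) opens a side branch that yields a shorter vasodilator peptide and also degrades bradykinin, natriuretic peptides and substance P, while the receptor Agtr1a mediates vasoconstriction and Agtr2 often opposes it.

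Among the members, the aminopeptidases that act on angiotensin II and III had the smallest p. The Enpep probe set 1368512_a_at was higher in diabetic lung by a factor of 1.45, and Anpep had a mean ratio of 1.42. The groups overlapped on the other 10 member probe sets, those of Anpep (by 1 animal) and the second of Enpep included. Of the 8 member probe sets above the filter on low signal, 1 passed an adjusted p of 0.05 in limma, against a background of 0.168% of the 9520 probe sets tested (0.0945% higher in diabetic lung). Before adjustment 2 had a p under 0.05, both higher, against 16.4% of all probe sets tested. The median log2 change over the 8 was -0.02, against -0.01 over all probe sets tested. The 3 probe sets of Agt and Agtr2 lay under the filter and are given as values only.

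The stretches just upstream of the annotated starts of Enpep and Anpep are shown because these were the members with an unadjusted p under 0.05. Each is the 250 bases before the RefSeq start on the GRCr8 assembly, printed in the direction of transcription, for Enpep at chr2:220526219-220526468 on the minus strand and for Anpep at chr1:143195102-143195351 on the minus strand. Capitals mark matches to any of 6 motifs searched on both strands: the TATA box TATAAA, the CCAAT box CCAAT, the GC box GGGCGG, the E-box CANNTG, the nuclear receptor half-site AGGTCA and the AP-1 site TGANTCA. Overlapping matches were counted separately.
Enpep: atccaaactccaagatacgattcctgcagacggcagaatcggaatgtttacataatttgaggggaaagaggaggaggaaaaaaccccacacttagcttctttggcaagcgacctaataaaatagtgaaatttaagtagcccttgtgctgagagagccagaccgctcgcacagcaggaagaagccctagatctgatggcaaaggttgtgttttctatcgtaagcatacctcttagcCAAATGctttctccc
Anpep: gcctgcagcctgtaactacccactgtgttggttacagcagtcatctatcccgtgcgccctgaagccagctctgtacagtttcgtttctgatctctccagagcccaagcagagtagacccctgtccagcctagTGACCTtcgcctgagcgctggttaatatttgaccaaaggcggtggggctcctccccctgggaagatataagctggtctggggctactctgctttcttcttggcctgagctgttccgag

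The Enpep stretch held 1 match, an E-box 15 bases before the start, and the Anpep stretch held 1 match, a half-site in reverse orientation 118 bases before the start. An E-box occurred in 65.5% of all 33469 rat promoters of this length and a half-site in 14.1%. The Enpep and Anpep stretches had no motif in common. Neither held a GC box, which 30.5% of promoters held, and neither held the TATA, CCAAT or AP-1 letters, found in 12.9%, 34% and 6.34% of promoters. The GC content was 45.2% for Enpep and 55.6% for Anpep, around the median of 51.2% over all promoters. The promoters of Ace (69.2%) and Mme (70.4%) were richer in GC, with 4 and 2 GC boxes, while that of Agtr1a had 60.8% and that of Agtr2 38%. Agt had no entry in the sequence table. These matches describe letters only and say nothing of binding.

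MAS5 signals, an intensity on a linear scale, had a mean of 500.1 on every array once the lowest and highest 2% were left out. The median signal per array was 252.7 to 265.6 in diabetic and 259.6 to 272.0 in normal lung. For GAPDH the 3' over 5' ratio of the array's control probe sets, which falls as RNA integrity rises, was 1.15 ± 0.0710 in diabetic (SD, n = 7) and 1.32 ± 0.0778 in normal lung (SD, n = 5; exact permutation test, two-sided, p = 0.00505). That of beta-actin was 2.08 ± 0.372 in diabetic and 2.06 ± 0.437 in normal lung (p = 0.920 in the same exact test). Diabetic animal 6 correlated least with its own group, at a mean r of 0.948 over the probe sets above the filter. It also had the highest GAPDH ratio of the diabetic group (1.30) and the highest beta-actin ratio of all animals (2.85). Normal animal 5 had the highest beta-actin ratio of the normal group (2.75). Values are given without diabetic animal 6 where they moved with it. All 7 heart muscle markers on the array were under the filter, as were 8 of 9 liver markers, whereas all 8 type II cell markers and 7 type I cell markers of the alveolus were above it.

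Enpep is the enzyme that turns angiotensin II into angiotensin III. Its probe set 1368512_a_at gave signals of 1699.4, 1781.4, 1892.2, 1765.7, 1545.7, 1898.3 and 1694.9 in diabetic animals 1 to 7, against 961.7, 1213.6, 1307.7, 1223.3 and 1356.3 in normal animals 1 to 5. All 7 diabetic animals were above every normal animal, and the lowest diabetic value (animal 5) still exceeded the highest normal value. Such a separation, in either direction, was found for 2.04% of all probe sets tested, and with diabetic lung higher for 0.924%. The means were 1754 ± 123 in diabetic (SD, n = 7) and 1213 ± 152 in normal lung (SD, n = 5). On the log2 scale the change was 0.54 (SE 0.087, 95% interval 0.35 to 0.73) with an adjusted p of 0.0249 in limma, and it ranked 6 by p among the 9520 probe sets. An exact permutation test over the 792 ways to divide the arrays gave a two-sided p of 0.00126, the smallest it can give. The animals within a group varied little, with a coefficient of variation of 7.01% in diabetic and 12.6% in normal lung.

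**Figure D1:**
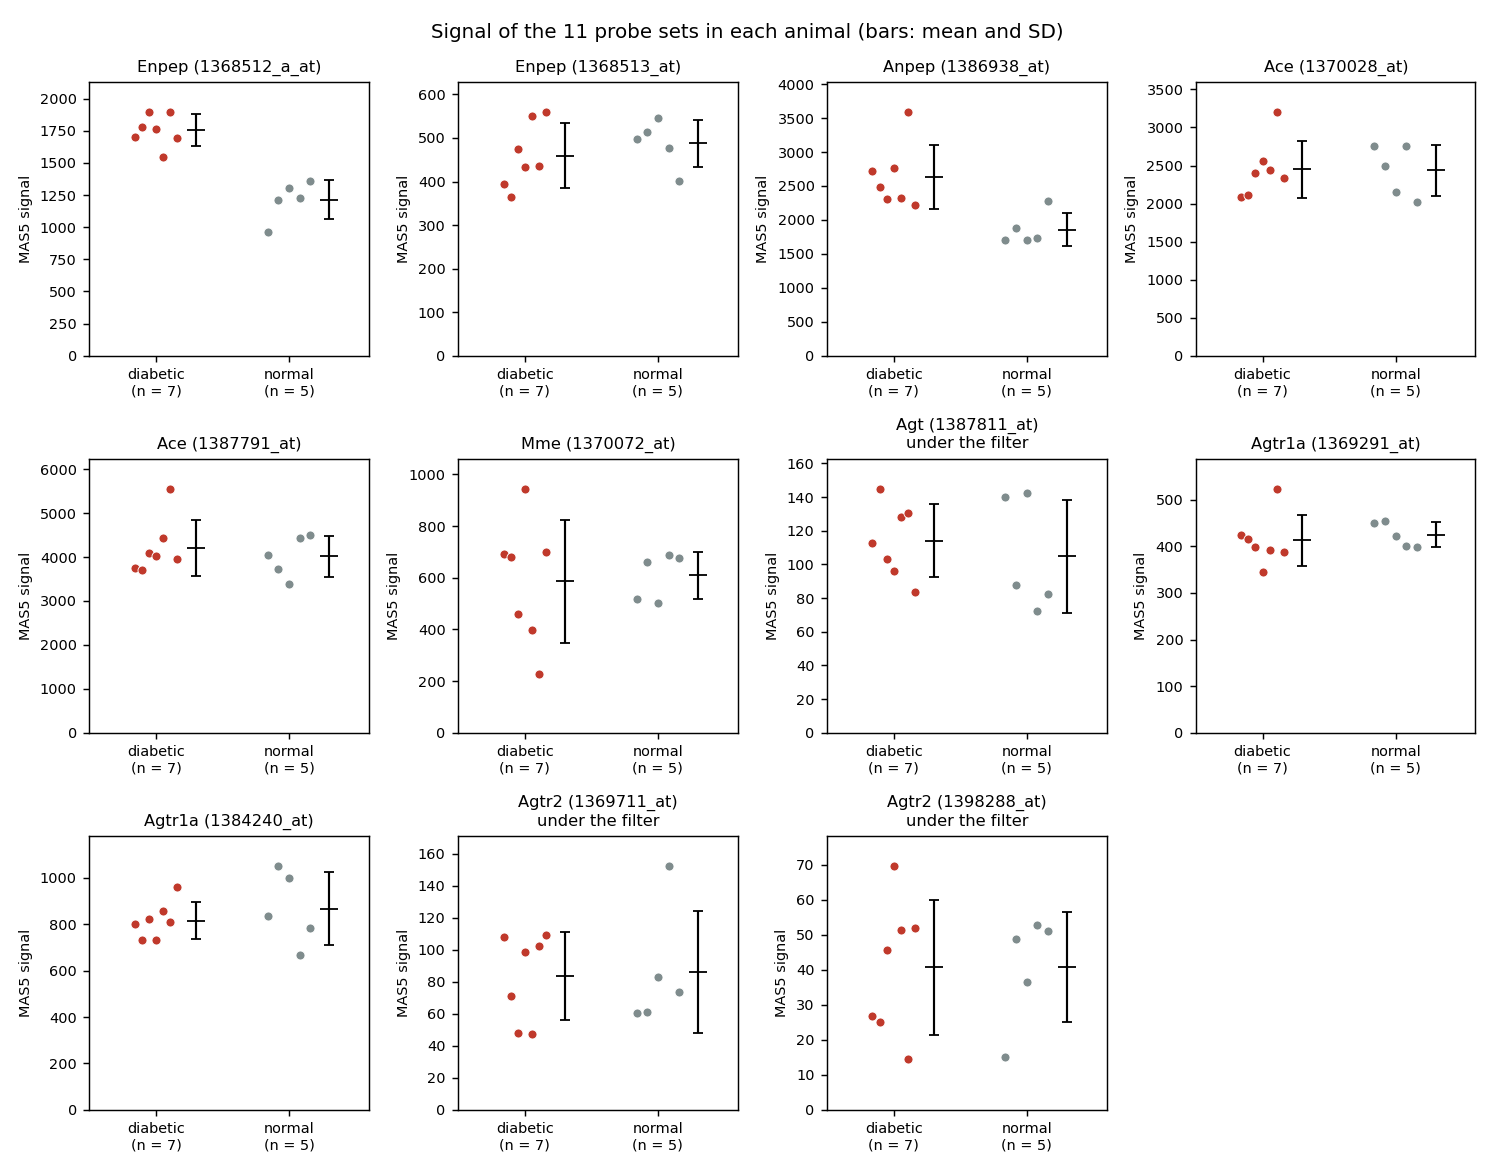
MAS5 signal (linear, from 0) of each of the 11 probe sets in 7 diabetic (red) and 5 normal (grey) animals, with mean and SD beside the points. The Enpep probe set 1368512_a_at is the single panel without overlap (1545.7 to 1898.3 in diabetic, 961.7 to 1356.3 in normal lung).

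The call on Enpep was close to its threshold. The adjusted p was 0.0581 without diabetic 2, 0.0622 without diabetic 3, 0.0714 without diabetic 4, 0.0786 without normal 2 and 0.0639 without normal 4. Without any 1 of the other 7 animals it was 0.0197 to 0.0463. The size of the change moved less, between 0.46 (without normal 1, the lowest normal animal) and 0.58 (without normal 5) on the log2 scale. It was 0.52 without diabetic 6 and 0.58 with the GAPDH ratio as a covariate in limma (adjusted p = 0.0419). With that covariate 288 of all probe sets passed, against 16 in the main fit, and the groups differ in that ratio.

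The other Enpep probe set, 1368513_at, behaved differently. Its signals were 393.9, 365.1, 475.4, 433.8, 550.7, 434.8 and 560.5 in the diabetic animals, against 497.6, 513.9, 546.0, 478.1 and 401.6 in the normal animals. The groups overlapped over most of their range, with 2 diabetic animals above and 2 below every normal animal. The log2 change was -0.09 (SE 0.116, 95% interval -0.34 to 0.15, adjusted p = 0.728 in limma), an interval that does not include the change of 1368512_a_at. With the GAPDH ratio as a covariate the log2 change of 1368513_at was -0.17 (adjusted p = 0.673 in limma). Both probe sets were annotated to the same GenBank record, and the suffix _a_at is the one the maker gives to a probe set that recognises several transcripts of a gene.

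A direct comparison of the pair within each animal, chosen after these values had been seen, took the log2 ratio of 1368512_a_at over 1368513_at. That ratio was 2.11, 2.29, 1.99, 2.03, 1.49, 2.13 and 1.60 in diabetic animals 1 to 7, against 0.95, 1.24, 1.26, 1.36 and 1.76 in normal animals 1 to 5. Diabetic animals 5 and 7, at 1.49 and 1.60, lay below normal animal 5, and the other 5 diabetic animals were above all normal animals. The mean was 1.95 ± 0.29 in diabetic and 1.31 ± 0.29 in normal lung (SD), a difference of 0.63 (exact permutation test, two-sided, p = 0.00884, and 0.0354 after Benjamini-Hochberg adjustment over 4 genes with a pair). The same difference was 0.06 for Ace (p = 0.591), -0.02 for Agtr1a (p = 0.862) and 0.01 for Agtr2 (p = 0.987, exact permutation tests). The change of Enpep thus depended on which probe set was read, and with all animals no other gene with a pair had a difference past the threshold. The small size of the Ace difference depended on normal animal 5: without that animal the difference was larger, at 0.17 (exact permutation test, p = 0.00909, not adjusted). Without any 1 of the other animals it was 0.02 to 0.08. Which transcript each Enpep probe set measures was not tested. The groups differ in the GAPDH ratio, and its part in the difference between the 2 probe sets was not tested either.

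**Figure D2:**
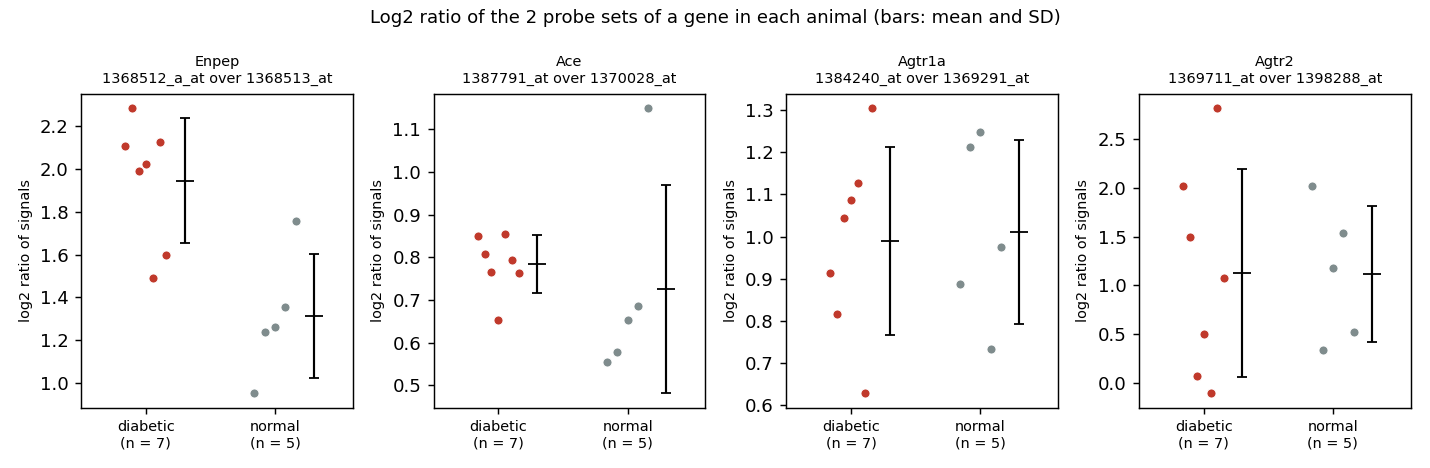
Log2 ratio of the signals of the 2 probe sets of a gene within each animal, for 7 diabetic (red) and 5 normal (grey) animals, with mean and SD, and with a vertical axis of its own in each panel that does not start at 0. The Enpep ratio was higher in diabetic lung (1.95 ± 0.29, against 1.31 ± 0.29 in normal lung), and the differences of the other 3 genes were 0.06 or less in size.

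Anpep, which follows Enpep in the chain and also trims many other peptides at the cell surface, had signals of 2720.6, 2478.1, 2312.4, 2769.6, 2320.5, 3594.7 and 2221.2 in diabetic animals 1 to 7, against 1697.7, 1886.2, 1710.3, 1728.6 and 2271.6 in normal animals 1 to 5 (probe set 1386938_at). Diabetic animal 6 was far the highest, and the groups overlapped in 1 place: normal animal 5 exceeded diabetic animal 7. The other 6 diabetic animals were above every normal animal. The means were 2631 ± 473 in diabetic (SD, n = 7) and 1859 ± 243 in normal lung (SD, n = 5). The log2 change was 0.49 (SE 0.115, 95% interval 0.25 to 0.74), with an unadjusted p of 0.000603 and an adjusted p of 0.0729 in limma, which did not pass the threshold. The exact permutation test gave p = 0.00253 (two-sided, not adjusted).

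Without diabetic animal 6 the Anpep change was 0.41 (adjusted p = 0.0622 in limma), and without normal animal 5 it was 0.57 (adjusted p = 0.0951). No removal of 1 animal brought the adjusted p of Anpep under 0.05, and the range was 0.0622 to 0.166. It passed with array weights (0.46, adjusted p = 0.0369) and with the 3' to 5' ratio of GAPDH (0.71, adjusted p = 0.0422) or of beta-actin (0.48, adjusted p = 0.0303) as a covariate. Under these settings 80, 288 and 27 of all probe sets passed, in that order, against 16 in the main fit. The groups also differ in the GAPDH ratio.

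**Figure D3:**
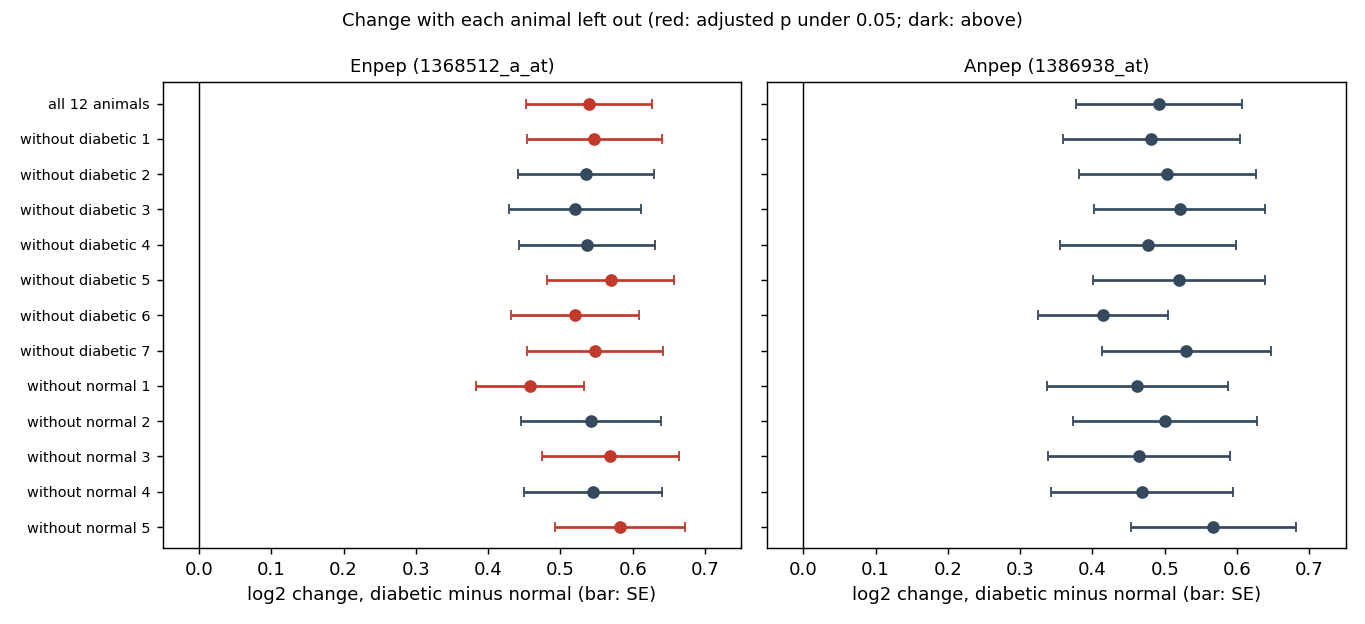
Log2 change in diabetic against normal lung with its SE from limma for Enpep (1368512_a_at, left) and Anpep (1386938_at, right), with all 12 animals and with each left out in turn, in red where the adjusted p was under 0.05. Enpep stayed between 0.46 and 0.58 with 7 of 12 removals under 0.05, and Anpep between 0.41 and 0.57 with none.

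Ace, the enzyme that makes angiotensin II and inactivates bradykinin, did not pass the test with either probe set. Probe set 1387791_at had a lowest, median and highest signal of 3703.0, 4023.0 and 5556.9 in diabetic lung, against 4054.7, 3729.6, 3385.2, 4427.1 and 4499.7 in normal animals 1 to 5. Probe set 1370028_at had 2083.8, 2403.4 and 3208.1 in diabetic lung, against 2760.9, 2497.7, 2151.5, 2751.6 and 2026.9 in normal animals. On both probe sets diabetic animal 6 was above all other animals, and the remaining 6 diabetic animals lay within the normal range. The log2 change was 0.06 (95% interval -0.15 to 0.28, adjusted p = 0.798 in limma) for 1387791_at and 0.01 (95% interval -0.23 to 0.24, adjusted p = 0.986) for 1370028_at. Both changes turned below 0 without diabetic 6, to -0.0042 and -0.062. With the GAPDH ratio as a covariate they were 0.41 and 0.40 (adjusted p = 0.0822 and 0.0989), and the groups differ in that ratio.

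Mme, neprilysin, varied more among diabetic animals than any other member above the filter. Its signals (1370072_at) were 691.0, 679.8, 461.1, 944.6, 396.7, 229.3 and 700.1 in diabetic animals 1 to 7, against 517.0, 660.4, 501.9, 688.2 and 675.2 in normal animals 1 to 5. Of the diabetic animals 3 were above and 3 below the whole normal range, with animal 4 the highest and animal 6 the lowest. The coefficient of variation was 40.6% in diabetic and 15.0% in normal lung, and the means were 586 ± 238 (SD, n = 7) in diabetic and 609 ± 91.1 (SD, n = 5) in normal lung. The log2 change was -0.16 with a wide 95% interval of -0.73 to 0.40 (adjusted p = 0.800 in limma), and it was 0.04 without diabetic 6. With the GAPDH ratio as a covariate it was -0.87 (adjusted p = 0.215). The interval leaves room for a change as large as that of Enpep in the lower direction.

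Agtr1a, the receptor through which angiotensin II constricts vessels, had a lowest, median and highest signal of 731.5, 809.1 and 959.7 in diabetic lung with probe set 1384240_at, against 834.7, 1053.3, 1001.0, 665.9 and 783.9 in normal animals 1 to 5. All diabetic values lay inside the normal range. With 1369291_at the diabetic values were 344.6, 399.2 and 523.8, against 451.0, 454.7, 421.4, 400.5 and 398.7 in normal animals. The log2 changes were -0.07 (95% interval -0.31 to 0.16, adjusted p = 0.783 in limma) and -0.05 (95% interval -0.26 to 0.15, adjusted p = 0.828). Diabetic animal 6 was the highest of all animals on 1369291_at, and without it the change there was -0.11 (adjusted p = 0.523). With the GAPDH ratio as a covariate the changes were -0.29 (adjusted p = 0.371) for 1384240_at and 0.15 (adjusted p = 0.628) for 1369291_at. Agtr1b, a near-identical copy of Agtr1a in rodents whose transcripts these probes may also bind, had a signal of 42.9 ± 8.65 in diabetic (SD, n = 7) and 57.1 ± 31.6 in normal lung (SD, n = 5), under the filter.

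The remaining members were dim. Agt, the precursor made mainly by liver, had signals of 83.4 to 145.0 (median 112.6) in diabetic lung, against 140.0, 87.5, 142.4, 72.2 and 82.7 in normal animals 1 to 5 (1387811_at). Agtr2 had 47.7 to 109.5 (median 98.6) in diabetic lung with 1369711_at, against 60.7, 61.4, 83.0, 152.7 and 73.5 in normal animals. With 1398288_at it had 14.5 to 69.7 (median 45.6) in diabetic lung, against 15.0, 48.7, 36.6, 52.7 and 51.1 in normal animals. All these values lay under 170.0, the signal below which the 40% dimmest probe sets were set aside, and the groups overlapped on all 3 probe sets. In a limma fit without the filter the log2 change was 0.16 (SE 0.213, adjusted p = 0.808) for Agt, and -0.03 (SE 0.296) and -0.04 (SE 0.420) for Agtr2. At this brightness a change of the size seen for Enpep was not detectable for Agtr2.

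**Figure D4:**
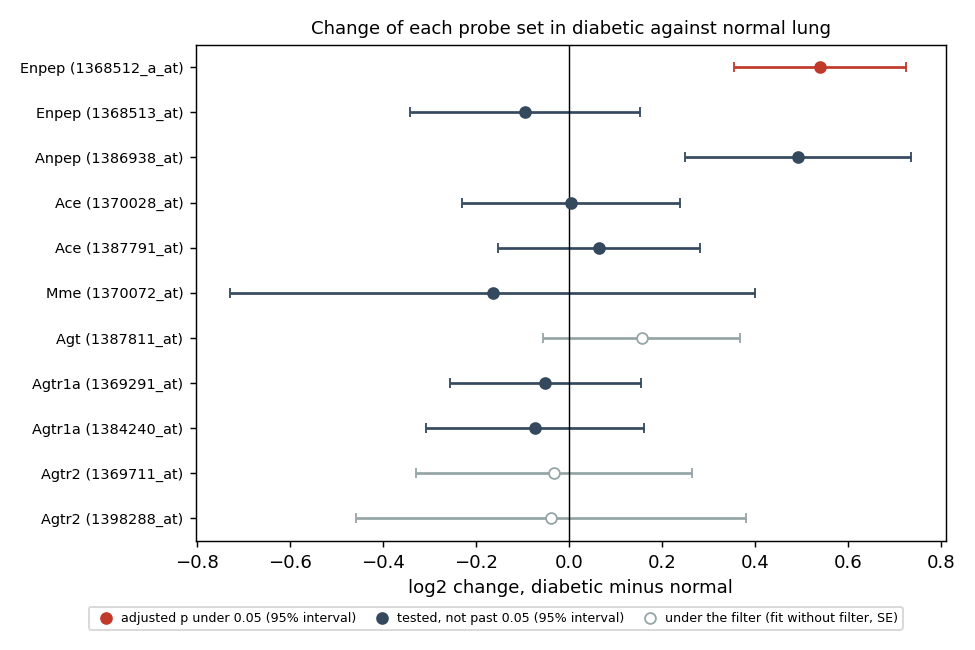
Log2 change in diabetic against normal lung of the 11 probe sets, with 95% intervals from limma for the 8 tested (red where the adjusted p was under 0.05) and SE bars from the fit without a filter for the 3 dim ones (open). Enpep 1368512_a_at (0.54) and Anpep (0.49) lie to the right of 0, and the bars of the other 9 cross 0.

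Among the 7 diabetic animals, 21 pairs of members were compared on the log2 signal of the brightest probe set, with exact permutation tests. Enpep and Anpep had a Pearson r of 0.49 (p = 0.274) and a Spearman rho of 0.46 (p = 0.302). For this pair r was 0.13 to 0.77 with 1 animal left out, and -0.22 without the 2 animals farthest from the median of Enpep. Removing those 2 narrows the range of Enpep, so it cannot tell whether a relation rested on them. The smallest p belonged to Ace and Mme, with r = -0.88 (p = 0.0147, adjusted over 21 pairs 0.308) and rho = -0.64 (p = 0.139, adjusted 0.778). Their r was -0.18 without the 2 animals farthest from the median of Ace. No pair passed the adjustment.

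The genes whose signal followed a member most closely over all 12 arrays, once each group was centred on its own mean, are given as a description. Enpep was nearest to Kat5, a histone acetyltransferase, at r = 0.96, followed by Mrpl30 (0.89) and Myh1 (0.89). Anpep was nearest to Klf9, a transcription factor induced by glucocorticoids, at r = 0.92, followed by Fbxl20 (0.89) and Glud1 (0.88). Mme was nearest to the basement membrane gene Nid1 (0.91), with Cln6 (0.89) and Camkmt (0.89) next. For Ace these were Arhgap21 (0.91), Igf1r (0.89) and Cab39 (0.88), and for Agtr1a Tbcd (0.91), Rapgef2 (0.90) and Yipf2 (0.84). Kat5, the closest to Enpep, had a log2 change of -0.05 between the groups. Each member was set against 8040 probe sets (8041 for Anpep and Mme), all from the same arrays. Without diabetic animal 6 the r of the genes named was 0.90 to 0.96 for Enpep and 0.85 to 0.92 for Agtr1a, but 0.72 to 0.82 for Ace, 0.71 to 0.82 for Anpep and 0.74 to 0.77 for Mme. Removal of other animals was not run for these values. Spearman rho over all 12 arrays, centred in the same way, was 0.69 to 0.88 for the genes named with Enpep. It was 0.78 to 0.89 for Agtr1a, 0.78 to 0.85 for Ace, 0.74 to 0.83 for Anpep and 0.82 to 0.92 for Mme.

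No further gene of the system above the filter passed the adjusted threshold. Of 24 listed renin-angiotensin genes, 16 were on the array and 8 were above the filter, of which 0 were called in limma. At an unadjusted p under 0.05, 2 were lower and 0 higher. Those 2 were oligopeptidases that can cut angiotensin I: Nln, neurolysin, with 195 ± 15.3 in diabetic and 254 ± 27.1 in normal lung (log2 change -0.38, adjusted p = 0.105), and Prep, prolyl endopeptidase, with 410 ± 41.9 in diabetic and 467 ± 29.9 in normal lung (-0.19, adjusted p = 0.287; SD, n = 7 diabetic and 5 normal, limma). The groups did not overlap for Nln, at 174.3 to 215.1 in diabetic and 218.9 to 286.0 in normal lung. Over all probe sets tested 2.04% did not overlap, in either direction. The cathepsin D gene Ctsd, whose product can cut angiotensinogen, had a log2 change of 0.30 (adjusted p = 0.310) and the aminopeptidase B gene Rnpep 0.10 (adjusted p = 0.512). The median log2 change of the 8 genes was -0.10, against -0.01 over all probe sets tested.

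Of the 8 genes of that list under the filter, 1 had groups that did not overlap, named here after its values were seen. Hsd11b2, the enzyme that inactivates corticosterone and so shields the mineralocorticoid receptor, had 65.3 to 195.9 in diabetic lung and 214.3 to 280.0 in normal lung. In the limma fit without the filter its log2 change was -1.04 (SE 0.263, adjusted p = 0.129), and the exact permutation test gave p = 0.00631 (two-sided, not adjusted). Without the filter 1.38% of all probe sets did not overlap. Also outside the naming rule, the angiotensin 1-7 receptor gene Mas1 had 29.5 to 93.8 in diabetic lung and 63.6 to 121.5 in normal lung, and the chymase-like Mcpt1 had 23.4 to 245.0 in diabetic lung and 191.7 to 263.5 in normal lung.

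Other aminopeptidases and surface peptidases gave 0 calls. Of 15 cytosolic and other aminopeptidases on the array, all above the filter, 1 was higher at an unadjusted p under 0.05 and 0 lower. It was Ctsc, cathepsin C, a lysosomal dipeptidyl peptidase that activates granule proteases, at 2103 ± 237 in diabetic and 1626 ± 134 in normal lung (log2 change 0.37, adjusted p = 0.0729 in limma; SD, n = 7 diabetic and 5 normal). The groups did not overlap for Ctsc, at 1809.7 to 2555 in diabetic and 1423.7 to 1756.6 in normal lung. Over all probe sets tested 0.924% were separated with diabetic lung higher. Lap3 (0.26), Rnpepl1 (0.13) and Lta4h (0.12) had adjusted p of 0.475, 0.463 and 0.481, and the median of the list was 0.02. Of 19 other peptidases of the cell surface on the array, 10 were tested, with 0 higher, 1 lower and a median of -0.15. The lower one was Xpnpep2, the membrane-bound aminopeptidase P that degrades bradykinin, at 458 ± 130 in diabetic and 621 ± 56.4 in normal lung (log2 change -0.49, adjusted p = 0.189 in limma). Erap1, the aminopeptidase that trims peptides for antigen presentation, had a log2 change of 0.29 (adjusted p = 0.326), Cpd 0.19 (adjusted p = 0.326) and Adam17 -0.25 (adjusted p = 0.340).

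The kinin system shares Ace, Mme and Xpnpep2 with these pathways. Of its 10 genes on the array 3 were tested, Xpnpep2, Cpn1 (log2 change -0.17, adjusted p = 0.354) and Xpnpep1 (0.02, adjusted p = 0.952), with 1 lower and 0 higher in limma before adjustment. The bradykinin receptor genes, named for their role, were dim, Bdkrb1 at a mean of 77.5 in diabetic and 89.2 in normal lung and Bdkrb2 at 110 in diabetic and 99.8 in normal lung. The unadjusted background was 7.75% higher and 8.68% lower among all probe sets tested, so counts of 1 or 2 in lists of this size are no result about a list.

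**Figure D5:**
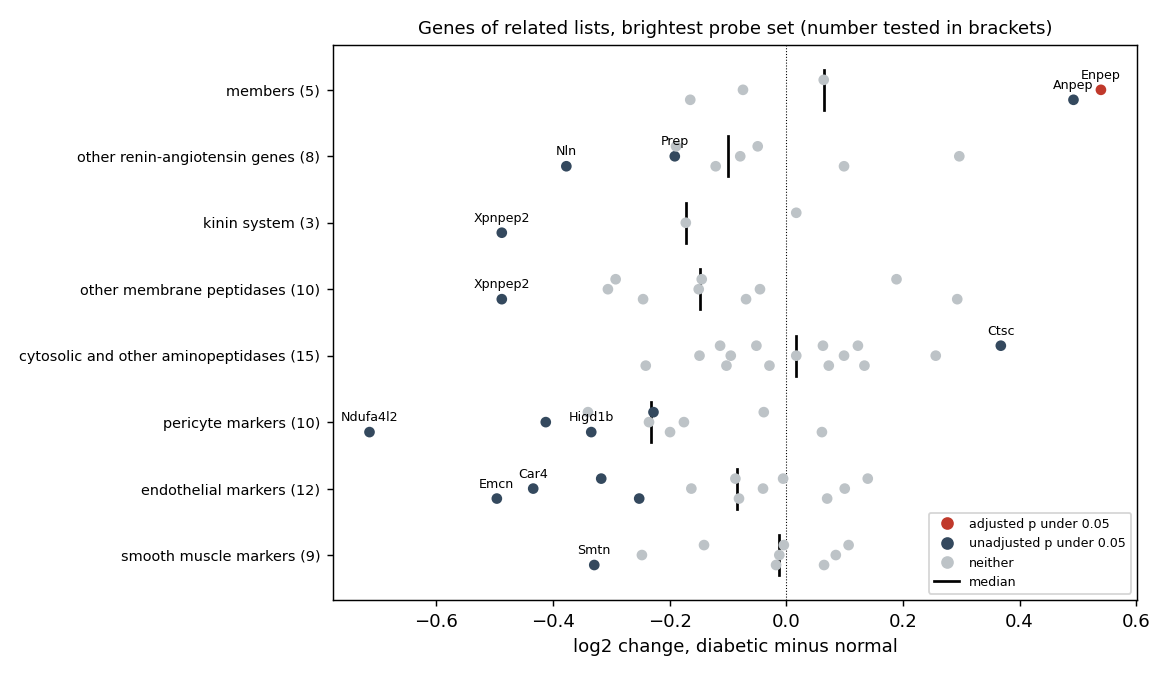
Log2 change in diabetic against normal lung of each gene of 8 lists (brightest probe set), with the number tested in brackets, the median as a black bar, red for an adjusted p under 0.05 and dark for an unadjusted p under 0.05 in limma. Enpep is the single red point, with the members' list median at 0.06 and the medians of the other lists between -0.23 and 0.02.

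Enpep and Anpep are known on pericytes and other cells of the vessel wall, and Ace on endothelium, so markers of these cells were read beside them. Of 11 pericyte markers 10 were tested, with 4 lower and 0 higher at p under 0.05 before adjustment (Ndufa4l2 -0.71, Rgs5 -0.41, Higd1b -0.33 and Notch3 -0.23), and their median was -0.23. The summed signal of the 11 was 6085 to 9454 in diabetic and 8226 to 9385 in normal lung. Of 13 endothelial markers on the array 12 were tested, with 0 higher and 4 lower (Emcn -0.50, Car4 -0.43, Egfl7 -0.32 and Eng -0.25), a median of -0.08 and summed signals of 28385 to 34493 in diabetic and 31446 to 35860 in normal lung. Smooth muscle markers had a median of -0.01, with 1 of 9 tested lower (Smtn -0.33). None of these markers was at 0. Of those tested in the 3 lists, none was higher at an unadjusted p under 0.05 and none passed the adjusted threshold. Over all probe sets tested 8.68% were lower and 7.75% higher before adjustment. Kcnj8, the pericyte marker under the filter, had a mean signal of 191 in diabetic and 148 in normal lung, and in the limma fit without the filter its log2 change was 0.38 (adjusted p = 0.371), with an exact permutation p of 0.0480 (not adjusted). The ranges of the pericyte and endothelial sums were the same without diabetic 6.

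Fibroblast markers had 7 lower and 1 higher (Pdgfra 0.58) of 11 tested at an unadjusted p under 0.05. Over all probe sets tested 8.68% were lower and 7.75% higher at that p, and no fibroblast marker passed the adjusted threshold. Their median log2 change was -0.59, with Dcn (0.19) and Tcf21 (0.15) also above 0. The summed signals were 11759 to 18158 in diabetic (14797 to 18158 without diabetic 6) and 19948 to 22009 in normal lung. Col3a1 was a large part of these sums, with a mean of 4809 in diabetic and 8739 in normal lung. Macrophage markers, a further site of Anpep, had 1 of 4 higher before adjustment, a median of 0.20 and sums of 24860 to 32770 in diabetic (24860 to 28358 without diabetic 6) and 24580 to 33046 in normal lung. These 4 were the ones on the array of 10 listed, and none passed the adjusted threshold. The sums were mostly Lyz2, with a mean of 24767 in diabetic and 26340 in normal lung (log2 change -0.08). Cd68 (0.29), Csf1r (0.29) and Fcgr3a (0.10) were above 0 in log2 change. The part of shifts in cell makeup in the Enpep and Anpep values was not tested.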

How the data were processed

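Lung RNA of 7 diabetic and 5 normal rats, each a separate animal, was measured on 12 arrays. The authors used MAS5 to compute a signal for each probe set and scaled each array to a common trimmed mean, and the deposited values have the unit intensity on a linear scale. They were transformed to log2, with 1 value at or below 0 replaced by 0.1. Of 15923 probe sets, 57 controls were left out, 12783 named a single gene (10411 genes), 312 named several and 2771 none. Names came from the platform annotation, updated through Entrez IDs.

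Groups were set against each other by a two-sided limma fit (version 3.58.1 under R 4.3.3, lmFit, then eBayes with trend). The 40% dimmest probe sets by mean log2 signal were removed first, p-values were adjusted by Benjamini-Hochberg over the 9520 left, and an adjusted p of 0.05 was the threshold. The same fit was also run on simulated data with means and SDs taken from these arrays, with results not given here. Single values were tested by exact permutation over all 792 splits of the arrays (scipy 1.17.1). A list used the brightest probe set of each gene. Upstream bases came from RefSeq (GRCr8), and 6 of 7 members matched. Figures were drawn with matplotlib 3.10.9 in python 3.11.15.

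The members and lists were chosen with earlier results of these data known. The text names every member, in each list of related genes the 4 with the smallest p at most, and the 3 genes most like each member. Agtr1b, Mas1, Bdkrb1 and Bdkrb2 were added for their role, and Hsd11b2, Mcpt1 and the markers after their values were seen. Alternatives changed the filter, the threshold, the scaling, the pseudocount (64), the replicate block, array weights, the variance model and RNA integrity ratios, or left out each animal. The number of arrays limits the precision. Animals with the same number did not vary together (r from -0.12 to 0.04), so the numbers were not treated as pairs. The study's BAMarray test, its detection calls and DAVID were not used, and its RT-PCR and heart arrays were not analysed here.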

Additional observations from a re-analysis of the deposited data

How the results depend on the processing

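The count of all probe sets past the threshold was 16. It was 25 with quantile normalization, 7 without the filter, 32 with the lowest 60% removed, 9 without an intensity trend, 80 with array weights, 10 with the replicate block as a random or as a fixed term, 288 with the GAPDH ratio and 27 with the beta-actin ratio as a covariate, and 196 at an adjusted p under 0.10. Leaving out 1 animal gave 2 to 30. The count of member genes past the threshold was 1 and became 2 (Enpep and Anpep) with array weights, with either ratio as a covariate and at an adjusted p under 0.10. It became 0 with the replicate block as a fixed term (Enpep 0.53, adjusted p = 0.0957), against an adjusted p of 0.0345 with the block as a random term, and it was 0 to 1 with 1 animal left out. The exact permutation test was counted differently, as member probe sets with an unadjusted p under 0.05. That count was 2 under every setting run for it. It cannot be set beside the counts of genes, which rest on an adjusted p. The share of all probe sets that pass the exact test at that p is not given here. The cause of the shifts in the counts at an adjusted p was not tested. A fixed block or a removal also leaves fewer animals.

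The directions of Enpep (1368512_a_at, 0.46 to 0.58) and Anpep (0.41 to 0.71) were the same in all alternatives run. Changes near 0 turned sign: Ace 1370028_at with quantile normalization (-0.0021), array weights (-0.029) and the fixed block (-0.064), Ace 1387791_at with the fixed block (-0.0026), Agtr1a 1369291_at with the GAPDH ratio (0.15), Mme with array weights (0.087) and the fixed block (0.0055), Agtr2 1369711_at (0.0046) and 1398288_at (0.031) with quantile normalization, and the difference of the Agtr2 probe sets (-0.0079) on log2(signal + 64). With 1 animal left out they ranged from -0.062 to 0.053 for Ace 1370028_at, -0.0042 to 0.11 for Ace 1387791_at, -0.16 to 0.00076 for Agtr1a 1384240_at, -0.30 to 0.041 for Mme, -0.14 to 0.20 and -0.37 to 0.18 for Agtr2, 0.017 to 0.17 for the Ace difference (exact permutation p = 0.00909 without normal 5), -0.092 to 0.038 for the Agtr1a difference and -0.27 to 0.23 for the Agtr2 difference. That of Enpep, on settings chosen after seeing the data, was 0.54 to 0.75 with 1 animal left out.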
